A study of Bubalus bubalis with 12 samples.

Results

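The data described here are the input DNA profiles of water buffalo (Bubalus bubalis) sperm chromatin, taken from the Cy3 channel of 12 two-colour arrays. They cover 12 of the 24 array channels of the series, and the other 12 hold DNA immunoprecipitated from the same chromatin in Cy5. The members were taken as the Cy3 processed signal of every non-control probe on every array, on a log2 scale with the median of each array set to 0. Each bull has 2 arrays, one on which its input was hybridised against H3K4me2 DNA and one against H3K27me3 DNA. Both carry the same input, so they were averaged and counted as 1 replicate, which gave 6 bulls.

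The study compared histone marks in sperm of high-fertile and subfertile bulls. The high-fertile bulls are HF2, HF3 and HF5, and the subfertile bulls are SF1, SF4 and SF5. All semen was cryopreserved, and the labels give no age, treatment or breed for any bull. The chromatin of all 6 bulls was crosslinked and cut with micrococcal nuclease, and the DNA was amplified by linker-mediated PCR before it was labelled. The probes are 60 bases long and were designed on cattle sequence, whereas the samples are buffalo. Input DNA holds every gene whatever the cell it comes from, so marker genes cannot check the sperm label here.

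Most histones of a maturing sperm cell are replaced by transition proteins and then by protamines, and a small share of the genome keeps nucleosomes. Micrococcal nuclease cuts DNA that is not protected by a nucleosome or another bound protein, so a digested sample is enriched for protected fragments. Input DNA from such a sample carries no antibody selection and serves as the denominator of a ChIP ratio. A probe's input signal therefore reports how much amplified DNA of that short stretch was present, and it also depends on how well the stretch amplifies and hybridises. These parts cannot be told apart in these data, and signal was compared between bulls only within a probe or gene.

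The measurements were above background nearly throughout. The median input signal was 645 to 815 units per array, and 97.1 to 99.9% of the 177440 probes were well above background, with both arrays of HF3 lowest (97.7 and 97.1%). Between 0 and 39 probes were saturated on an array. The 6 bulls lie on 5 slides, and only slide 4 holds both groups, with HF5 and SF1. The labels name the bulls as separate animals, 3 in each group, and that number limits the precision of every comparison below.

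The following probes show what was hybridised at 6 of the genes described below, which were chosen by p in the comparison of the fertility groups. Each lies in the middle of the probe cluster of smallest p of its gene. They are printed as the files give them, with the strand not stated, and CpG dinucleotides are in capitals. Coordinates are those of the array design, on the cattle build HGSC Btau_3.1.
CCDC91: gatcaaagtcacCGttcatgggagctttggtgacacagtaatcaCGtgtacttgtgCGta
QRFPR: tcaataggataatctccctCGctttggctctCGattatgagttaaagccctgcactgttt
ROPN1L: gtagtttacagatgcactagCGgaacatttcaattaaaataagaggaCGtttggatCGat
HHATL: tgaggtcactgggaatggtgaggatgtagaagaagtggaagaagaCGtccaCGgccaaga
PIGL: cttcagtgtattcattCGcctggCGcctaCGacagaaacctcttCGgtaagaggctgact
TGFB2: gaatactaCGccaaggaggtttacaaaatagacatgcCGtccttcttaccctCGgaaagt

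The CCDC91 probe (chr5:87781236-87781295) was designed as a CpG island probe and holds 3 CpG. Its log2 input was −0.34 in HF2, 0.16 in HF3 and 0.18 in HF5, against −4.12 in SF1, −3.02 in SF4 and −1.98 in SF5. The ROPN1L probe (chr20:66552902-66552961), also a CpG island probe, has a GC content of 36.7% and read −1.28, −1.90 and −1.36 in HF2, HF3 and HF5 and −4.53, −4.54 and −3.27 in SF1, SF4 and SF5. At both probes the lowest high-fertile bull lay above the highest subfertile bull. The TGFB2 probe (chr16:20839734-20839793) ran the other way, at −1.14, −1.98 and −2.63 in HF2, HF3 and HF5 and 0.64, 0.29 and −0.34 in SF1, SF4 and SF5. The QRFPR probe lies at chr6:4026788-4026847, the HHATL probe at chr22:15242684-15242743 and the PIGL probe at chr19:34217421-34217480.

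Input profiles were individual to each bull. A deviation is a gene's log2 input in a bull minus its mean over the 6 bulls, with a gene's value the mean of its probes. Computed separately on the H3K4 and the H3K27 arrays, the deviations of a bull correlated with those of the same bull on its other array at r = 0.95 to 0.98 over 6805 genes (median 0.97). Between different bulls the median was −0.19 and the range −0.43 to 0.19. Independent profiles of equal spread would give −0.2, because the deviations of 6 bulls sum to 0. Genes are not independent replicates, and these correlations are descriptions.

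**Figure D1:**
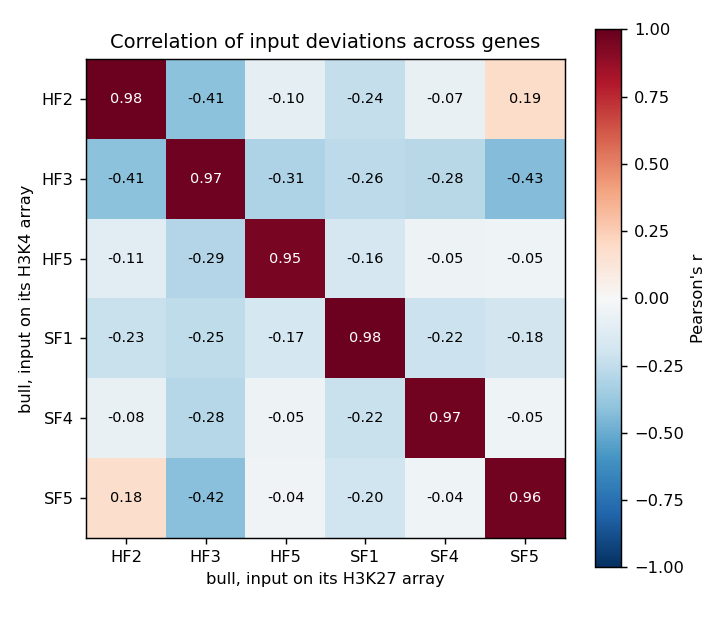
Pearson's r across 6805 genes between the input deviations of each bull on its H3K4 array (rows) and of each bull on its H3K27 array (columns), with colour from −1 to 1. The diagonal, the same bull on both arrays, lies at 0.95 to 0.98, and the other cells do not exceed 0.19.

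Nearly every gene differed between the inputs of the bulls beyond the spread of the 2 arrays of a bull. Among 6805 genes with at least 2 probes, 6773 (99.5%) passed an adjusted p of 0.05 in limma's F test over the 6 bulls on 12 arrays. The spread behind that test is between arrays of 1 input and slide, so it is technical, and slide and bull cannot be told apart for the 4 bulls that have a slide to themselves. The median range of a gene over the 6 bulls was 1.19 log2 units, against a median SD between arrays of a bull of 0.051. Differences between the arrays of a bull made up 1.67% of all variation around the gene means.

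By these measures bulls of the same fertility group were no more alike than bulls of different groups. The difference between the group means, 1 of the 5 degrees of freedom between bulls, took 17.8% of the sum of squares between them. In direct comparison of the gene profiles, r was 0.67 to 0.83 for the 6 pairs of bulls of the same group (median 0.78) and 0.68 to 0.84 for the 9 pairs across groups (median 0.79). The mean size of a gene's difference between 2 bulls was 0.60 within groups and 0.58 across groups. The most alike pair by deviations was HF2 and SF5, one from each group, at r = 0.18 over genes. HF5 and SF1, which share a slide, had r = −0.17.

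HF3 stood apart from the other bulls. Its probe deviations had an SD of 1.06, against 0.55 to 0.75 in the other bulls, and it held 37.1% of the sum of squares between bulls. In HF3, 5.08% of probes lay over 4-fold below the mean of the bulls and 1.93% over 4-fold above it. The next highest shares were 1.57% below in SF1 and 0.35% above, also in SF1. On both of its arrays 2974 probes were not well above background, and at 2186 of these every other bull was above background on both arrays. The corresponding numbers of probes low in a single bull were 262 in SF1, 165 in HF5, 88 in SF4, 15 in HF2 and 11 in SF5. The 2 arrays of HF3 also differed most from each other, with an SD of 0.23 per probe against 0.10 to 0.18 in the other bulls.

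The genes farthest from the other bulls show how large the differences between the inputs of bulls were. NRBP1, a nuclear receptor binding protein, had 12 probes in 1 cluster at chr11:74337685-74337802 and read 2.20 in HF3 and −3.15 in SF1. In HF2, HF5, SF4 and SF5 it read −1.69, −0.52, −0.88 and −1.09, so the range over bulls was 5.35 and neither extreme followed fertility. FNDC4, which encodes a fibronectin domain protein, read −4.11 in HF3 and between −1.03 and 0.07 in the other bulls. CRCP, a subunit of RNA polymerase III, was low in 1 bull of each group. It read −3.37 in HF2 and −3.79 in SF1, and −0.82 to 0.60 in the other 4. CDIPT, the phosphatidylinositol synthase, was high in 1 bull of each group, at 1.16 in HF2 and 0.37 in SF5 and −1.85 to −1.11 in the rest. LRRC28 read 0.54 in HF5 alone and −2.54 to −1.75 in the other 5 bulls. These genes were picked for their values, which are given as a description.

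Among the remaining picks, FAM115A and ZNF500 departed in 1 bull, and the others varied in several. FAM115A lay 1.93 below the mean in HF5 with the other bulls 0.05 to 0.59 above it. SLC26A11, a solute carrier of the sulfate transporter family, lay 2.11 above the mean in SF1 and 1.03 above it in SF5, and at −1.53, −1.37 and −0.95 in HF3, SF4 and HF5. TIMMDC1, an assembly factor of respiratory complex I, lay 1.84 above it in SF4 and at −1.32 and −1.19 in SF1 and HF3. The zinc finger gene ZNF500 deviated by −2.16 in SF4 and by 0.01 to 0.88 in the other bulls. CAPN5, a calpain protease, lay 1.62 above the mean in SF5 and at −1.14 and −0.97 in SF1 and HF3. ERCC3, a helicase of DNA repair and transcription, deviated by −1.61 in SF5 and by 1.14 and 0.98 in SF1 and HF3.

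At the other end, the mean input over the PAX6 probes hardly varied. PAX6, a transcription factor of eye and brain development, is tiled by 462 probes in 19 clusters and read 0.18, 0.23 and 0.14 in HF2, HF3 and HF5 and 0.12, 0.17 and 0.17 in SF1, SF4 and SF5. Its range of 0.10 was the smallest among genes with at least 10 probes, followed by NRN1, which encodes neuritin, at 0.15 and the calcium channel gene CACNA1E at 0.20. Genes with more separate probe clusters had smaller ranges. The median range fell from 1.40 for 1732 genes with 1 cluster to 1.09 for 1789 genes with 3 to 4 clusters and 0.54 for 96 genes with 10 or more, where a cluster ends at a gap of over 200 bases between probe starts.

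The stretches that varied together were short. Between probes whose starts lay 60 to 119 bases apart, and which share no base, deviations correlated at r = 0.41 to 0.46 in the 6 bulls over 206229 pairs. The correlation was 0.24 to 0.29 at 120 to 199 bases and 0.06 to 0.10 at 200 to 399 bases. From 400 to 999 bases it was −0.02 to 0.03. Probes under 60 bases apart share sequence, and their r of 0.54 to 0.83 includes that. The high-fertile minus subfertile difference of a probe followed the same course, with r = 0.48 at 60 to 119 bases, 0.27 at 120 to 199 bases and −0.01 at 400 to 999 bases.

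**Figure D2:**
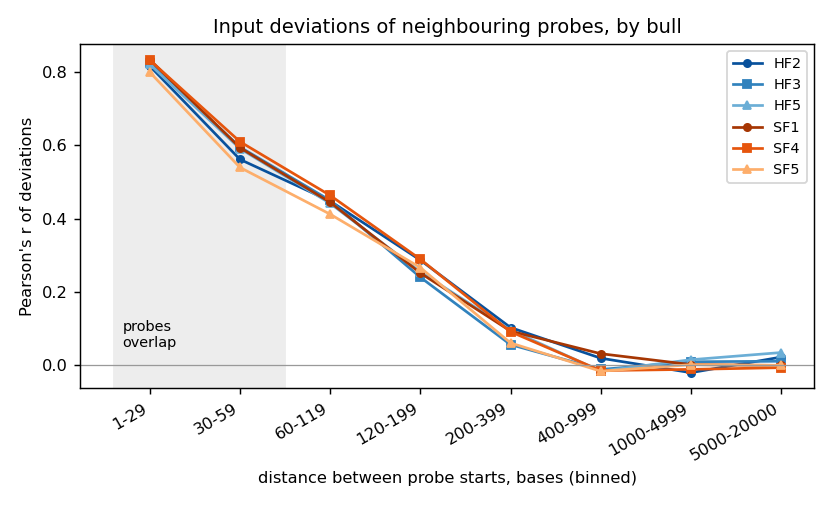
Pearson's r of input deviations between autosomal probes (vertical axis) by the distance between their starts in bases (horizontal axis, binned), with 1 line per bull. The shaded bins hold probes that overlap. All 6 lines fall from 0.41 to 0.46 at 60 to 119 bases to −0.02 to 0.03 at 400 to 999 bases.

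Base composition went with the deviations, in a direction that differed from bull to bull. Per 10 percentage points of probe GC content, deviations fell by 0.21 in HF2 and by 0.21 in SF5. They rose by 0.26 in HF3, 0.11 in SF1, 0.03 in SF4 and 0.01 in HF5. Among 21306 probes under 45% GC, the median deviation was 0.21 in HF2 and 0.24 in SF5 and −0.40 in HF3. The order turned at 60% GC and over, with −0.26 in HF2, −0.21 in SF5 and 0.12 in HF3. The mean slope was 0.02 ± 0.23 (SD, n = 3) in high-fertile and −0.02 ± 0.17 (SD, n = 3) in subfertile bulls, with an exact two-sided permutation p of 0.9. With 3 bulls against 3 the smallest p that this test allows is 0.1. The spread over bulls was also larger at low GC, with a median SD of 0.90 under 45% GC and 0.39 at 60% and over.

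**Figure D3:**
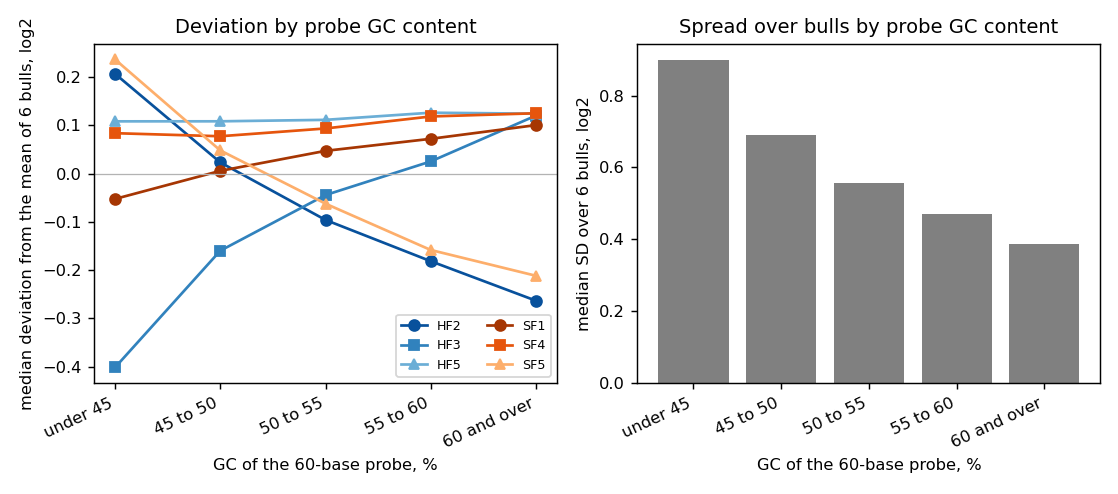
Left, the median deviation of probes from the mean of 6 bulls (log2) in 5 bins of probe GC content (%), 1 line per bull. Right, the median SD over the 6 bulls (log2) in the same bins. HF2 and SF5 fall from left to right and HF3 rises, from −0.40 to 0.12, and the SD declines from 0.90 to 0.39.

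Probe classes and chromosomes did not differ between the fertility groups by more than the spread of bulls. The median deviation of the 13402 promoter probes minus that of the 160659 CpG island probes was −0.02 ± 0.10 (SD, n = 3) in high-fertile and 0.03 ± 0.03 (SD, n = 3) in subfertile bulls (exact permutation p = 0.5). The 3310 coding probes gave a group difference of 0.0005 (exact permutation p = 1 with 3 bulls per group). X-linked input lay below autosomal input by 0.29 in HF2 and by 0.19 in SF5, and above it by 0.04 to 0.20 in the other bulls, and the group difference was 0.002 (exact permutation p = 1 with 3 bulls per group). The 307 X probes have a median GC of 60%, against 51.7% on autosomes. Of the X probes 91.5% are promoter probes and 0% CpG island probes, whereas CpG island probes make up 90.6% over the array. The X difference was not tested within a probe class. After correction of each array for GC content the X difference was −0.12 in HF2, −0.02 in SF5 and −0.02 to 0.03 in the others. On none of the 29 autosomes did the chromosome medians of the 3 high-fertile bulls lie all above or all below those of the subfertile bulls. The difference of the group means of these medians was below 0 on each autosome, from −0.09 to −0.0002.

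In the comparison of high-fertile with subfertile input, no gene passed the test. Of 6805 genes, 0 (0%) reached an adjusted p of 0.05 in limma (lowest adjusted p 0.998), and 240 (3.53%) had an unadjusted p under 0.05, 92 with higher and 148 with lower input in the high-fertile group. Of 176101 probes with a value on all arrays, 0 (0%) passed in limma, and 6587 had an unadjusted p under 0.05. A test of 12778 regions of at least 3 neighbouring probes, added after the data were seen, also called 0 in limma, with 502 at an unadjusted p under 0.05, and 12753 of these regions differed between bulls. The 95% interval of a gene's difference, not adjusted for the number of genes, had a median half-width of 0.83 log2 units. Larger differences also went uncalled, as 234 genes differed by over 1 log2 unit and 0 passed. The absence of calls therefore does not exclude differences of that size. At 534 genes (7.85%) the 3 bulls of one group all lay above the 3 of the other, 219 with the high-fertile bulls higher and 315 with them lower. With HF2 left out, limma put 397 genes below the unadjusted threshold of 0.05, 136 higher and 261 lower. The excess of lower genes reversed without HF3, to 151 higher and 117 lower. Without SF5 the split was even, at 114 and 114, and without HF5, SF1 or SF4 the lower side stayed larger. Quantile normalization gave 140 higher and 144 lower.

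For a closer description 20 genes were taken in order of unadjusted p, 10 in each direction, from genes of at least 3 probes whose 6 high-fertile arrays did not overlap the 6 subfertile arrays. That choice fixes their direction and separation, and all 20 have a limma adjusted p of 0.998. Those described next number 19.

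Of the genes higher in high-fertile input, CCDC91, a coiled-coil protein of Golgi transport, had the smallest p. It read −0.11, 0.45 and 0.51 in HF2, HF3 and HF5 and −3.18, −2.11 and −1.71 in SF1, SF4 and SF5. The difference was 2.61 (95% interval 1.65 to 3.58), a 6.12-fold higher mean on the linear scale of the log averages. All 11 probes, in 1 cluster at chr5:87781215-87781357, were higher in high-fertile bulls. With 1 value per bull its limma adjusted p was 0.998. In a fit on the 12 single arrays with bull as a random block it was the 1 gene to pass, with a limma adjusted p of 0.033. That fit enters the 2 arrays of a bull, which carry the same input, as separate values and adds no bulls.

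ROPN1L encodes a ropporin-like protein of the sperm flagellum. It had 27 probes in 4 clusters over chr20:66536135-66554094 and differed by 1.56 (95% interval 0.76 to 2.37). The difference came from 1 cluster of 19 probes at chr20:66552677-66552996. There the high-fertile bulls read −0.76, −1.38 and −0.97 and the subfertile bulls −3.57, −3.41 and −2.59, a difference of 2.15. The other 3 clusters differed by 0.21, 0.17 and 0.03. Of the 27 probes, 11 were not well above background on some array. The gene's difference was 0.95 with probes well above background on all 12 arrays and 0.89 under normexp background correction.

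SLC25A40, a mitochondrial carrier, read −1.45, −0.41 and −0.01 in HF2, HF3 and HF5 and −2.75, −2.04 and −3.00 in SF1, SF4 and SF5, over 4 probes. Its difference of 1.97 was 1.29 under normexp. CSNK2B, the regulatory subunit of casein kinase 2, also differed within 1 cluster. At its 9 probes at chr23:27437307-27437394 the difference was 1.92. At 2 promoter probes that start at positions 27432804 and 27435799 it was −0.35 and −1.06. QRFPR, a neuropeptide receptor, differed by 1.43 (95% interval 0.76 to 2.10) over 5 probes. The subfertile values of QRFPR, −1.41, −1.52 and −1.92, all lay below the lowest high-fertile value, −0.40 in HF2.

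The other genes of this direction differed by 1.08 to 1.45. They included ARL6IP5, whose product bears on membrane traffic, OXA1L, a mitochondrial membrane insertase, SMYD1, a muscle histone methyltransferase, and ATP6V0A2, a subunit of the vacuolar proton pump. OXA1L read −0.14, 0.91 and 0.83 in HF2, HF3 and HF5 and −0.91, −1.30 and −0.38 in SF1, SF4 and SF5, and rests on 3 probes. At ATP6V0A2 all 28 probes, in 1 cluster of chr17:54633312-54633502, were higher in high-fertile bulls.

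Of the genes lower in high-fertile input, HHATL had the smallest p. It encodes a relative of the hedgehog acyltransferase and read 0.61, −0.88 and −0.70 in HF2, HF3 and HF5 and 1.62, 1.86 and 1.09 in SF1, SF4 and SF5. The difference was −1.85 (95% interval −2.86 to −0.83) over 13 probes of 1 cluster.

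PRMT1, the main arginine methyltransferase acting on histone H4, differed by −1.53 (95% interval −2.49 to −0.57). In its cluster of 20 probes at chr18:56030799-56030938 the high-fertile bulls read −1.45, −2.76 and −0.97 and the subfertile bulls 0.58, −0.28 and 0.10. A second cluster of 4 probes that starts at position 56031097 differed by −0.22. The groups therefore lay apart in the first stretch and close together in the next.

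TGFB2, a ligand of the TGF-beta pathway, had 35 probes in 5 clusters and was lower in high-fertile input, with a 95% interval of −1.64 to −0.36 for the difference. The 14 probes at chr16:20839709-20839821 differed by −2.13, and 15 probes that end at position 20839291 by −0.27. With the median of the probes as the gene's value the difference was −1.82. Of its probes, 30 gave a lower and 5 a higher mean in the high-fertile group.

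PIGL, an enzyme of GPI anchor synthesis, differed by −1.81 in 9 probes at chr19:34217406-34217508 and by −0.18 at a promoter probe that starts at position 34215546. Within slide 4, as HF5 minus SF1, the difference of PIGL was −1.04, against −1.64 over all bulls. DARS, the cytoplasmic aspartyl-tRNA synthetase, was low in all 3 high-fertile bulls, at −0.92, −0.82 and −1.01, against 0.64, 0.72 and −0.29 in SF1, SF4 and SF5. CLN3, mutated in a juvenile lysosomal storage disease, had 7 CpG island probes that differed by −1.49. A promoter probe at chr25:27868615-27868674 differed by −1.35, and another, at 1.45 to 1.79 in every bull, by −0.05.

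KLHL20, a substrate adaptor of a ubiquitin ligase, rests partly on a probe below background. Its promoter probe at chr16:52234520-52234579 was not well above background on any high-fertile array, where it read −6.06, −5.76 and −6.17, against −2.14, −3.49 and −3.28 in SF1, SF4 and SF5. Its 3 CpG island probes differed by −0.73, and there SF4 (−0.99) lay below HF2 (−0.84). The gene's difference of −1.31 was −0.61 under normexp and −0.78 with the median of the probes. HPCAL1, a neuronal calcium sensor, the anthrax toxin receptor ANTXR1 and the peroxisomal membrane protein gene PXMP4 differed by −1.27, −1.27 and −1.46, each within 1 cluster. Under normexp the difference was −0.77 at HPCAL1 and −0.83 at ANTXR1, and within slide 4 it was −0.39 at HPCAL1 and −0.88 at PXMP4. At HPCAL1 4 of 16 probes were not well above background on some array.

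**Figure D4:**
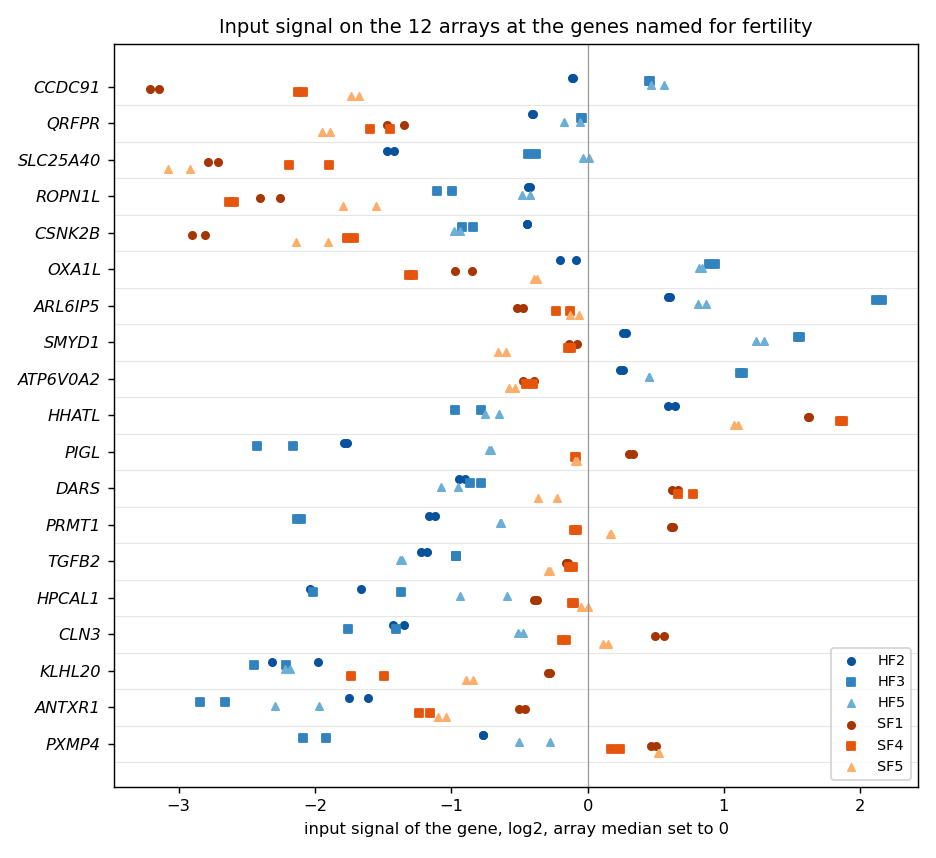
Log2 input signal with the array median at 0 (horizontal axis) on all 12 arrays at 19 genes (vertical axis), with 2 points per bull, high-fertile bulls in blue and subfertile bulls in orange. The genes were chosen for groups that do not overlap, and the gap between the 2 arrays of a bull varies, from −3.15 and −3.21 in SF1 at CCDC91 to −1.37 and −2.02 in HF3 at HPCAL1.

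Gene groups that bear on sperm and embryo were listed by function, and their genes were summarised by the median deviation in each bull. None of the 17 groups held a gene that passed the limma test, and nearly all of their genes differed between the inputs of the bulls. Over all genes tested the median high-fertile minus subfertile difference was −0.05, with 2989 genes higher and 3816 lower. The median deviation of all genes was −0.001 in HF2, −0.175 in HF3 and 0.078 in HF5. In SF1, SF4 and SF5 it was −0.008, 0.075 and 0.015. Without HF3 the median difference was 0.006, so the lower side was not shared by the high-fertile bulls. Against the 3.53% of all genes with an unadjusted p under 0.05, the count was 3 of 54 ribosomal protein genes and 2 of 32 other housekeeping genes. It was 1 gene each for the flagellum (ROPN1L), developmental transcription factor (LHX1), developmental signalling (TGFB2), chromatin modifier (PRMT1) and steroid (FSHR) groups, and 0 in the other 10 groups.

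Genes of protamines and histone exchange were thinly covered, with 4 of 19 genes measured. TNP1, the first transition protein, read −0.72 ± 0.13 (SD, n = 3) in high-fertile and −1.22 ± 0.12 (SD, n = 3) in subfertile input, over 2 probes. H2AFX, the histone variant of the DNA damage response, read 0.49 ± 0.63 (SD, n = 3) and −0.26 ± 0.30 (SD, n = 3). KAT5 and NASP, a histone acetyltransferase and a histone chaperone, differed by −0.50 and −0.29.

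The flagellum and motility group had 15 genes, 7 of them higher in high-fertile input and 8 lower. TEKT1, a tektin of the axoneme, read 1.90 ± 1.22 (SD, n = 3) against 1.07 ± 0.39 (SD, n = 3), and AKAP3, a scaffold of the fibrous sheath, 0.17 ± 0.49 against 0.79 ± 0.65 (SD, n = 3). Of 12 spermatogenesis genes, 6 were higher and 6 lower. DMC1, which acts in meiotic recombination, differed by −0.83. Of 11 acrosome and fertilization genes, 6 were higher and 5 lower, with CD46 at 0.48 and the hyaluronidase HYAL2 at 0.32.

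Of the 17 groups, the group whose medians lay apart was steroid and gonadotropin signalling. An exact permutation test of 3 bulls against 3 allows no p below 0.1, so its separation among 17 groups is given as a description. Its median deviation was −0.21, −0.27 and −0.11 in HF2, HF3 and HF5 and 0.22, 0.16 and 0.10 in SF1, SF4 and SF5, with 4 genes higher and 10 lower of 14. FSHR, the receptor for follicle-stimulating hormone, differed by −1.55 with 2.32 ± 1.27 (SD, n = 3) in high-fertile and 3.86 ± 0.18 (SD, n = 3) in subfertile bulls. The low high-fertile values were those of HF2 and HF5, whereas HF3 deviated by 0.67 from the mean, between SF4 (0.56) and SF1 (0.87). SRD5A2, a steroid 5-alpha reductase, differed by −0.86. PGR, the progesterone receptor, and the inhibin subunit INHBA went the other way, at 0.84 and 0.53, and were added after their values were seen. With at least 5 probes required per gene the difference of the group medians was 0.03 in place of −0.36. It was −0.25 under normexp and −0.24 under quantile normalization.

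Developmental genes divided nearly evenly. Of 72 developmental transcription factors, 35 were higher and 37 lower in high-fertile input, and of 37 developmental signalling genes 19 and 18. LHX1, a homeobox gene of kidney and head development, differed by −0.84 over 77 probes, with bulls of the groups apart. Of 21 HOX genes 8 were higher and 13 lower, with HOXD12 at −0.82. Developmental transcription factors had a median range over bulls of 0.82, against 1.19 over all genes tested. Over all genes tested the median range was smaller with more probe clusters, at 0.84 for genes with 5 to 9 clusters. The group was not compared with genes of equal cluster number. Of 16 early embryo and pluripotency genes 7 were higher and 9 lower. The oocyte growth factor GDF9 differed by −0.44 and SOX2 by 0.54.

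Of 15 imprinted genes 6 were higher and 9 lower. UBE3A, a ubiquitin ligase, differed by −0.92 and the long non-coding RNA gene MEG3 by 0.81, where HF3 deviated by 1.58 and the other bulls by −0.72 to −0.13. The 54 ribosomal protein genes comprised 22 higher and 32 lower, with RPS28 at −0.99 and RPS19 at −0.75. RPS10, the third of these with an unadjusted p under 0.05, was at 0.97. Other housekeeping genes were even, 16 and 16, with the translation factor subunit EIF3D at 1.25 and the chaperone HSPA8 at 1.07. Among 33 chromatin modifiers 14 were higher and 19 lower, with PRMT1 lowest in p and the acetyltransferase KAT7 at 0.91. Of 13 apoptosis genes 3 were higher and 10 lower, with cytochrome c (CYCS) at −0.88 and DIABLO at 0.94.

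Marker loci of leukocytes (3 higher and 2 lower of 5), epithelium (2 and 4 of 6) and somatic testis cells (3 and 4 of 7) held 0 genes with an unadjusted p under 0.05 and 0 that passed in limma. The leukocyte loci CSF1R and ITGB2 differed by 0.55 and −0.69, the keratin gene KRT8 and the tight junction gene CLDN4 by −0.25 and 0.19, and the inhibin subunits INHBB and INHBA by −0.45 and 0.53.

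**Figure D5:**
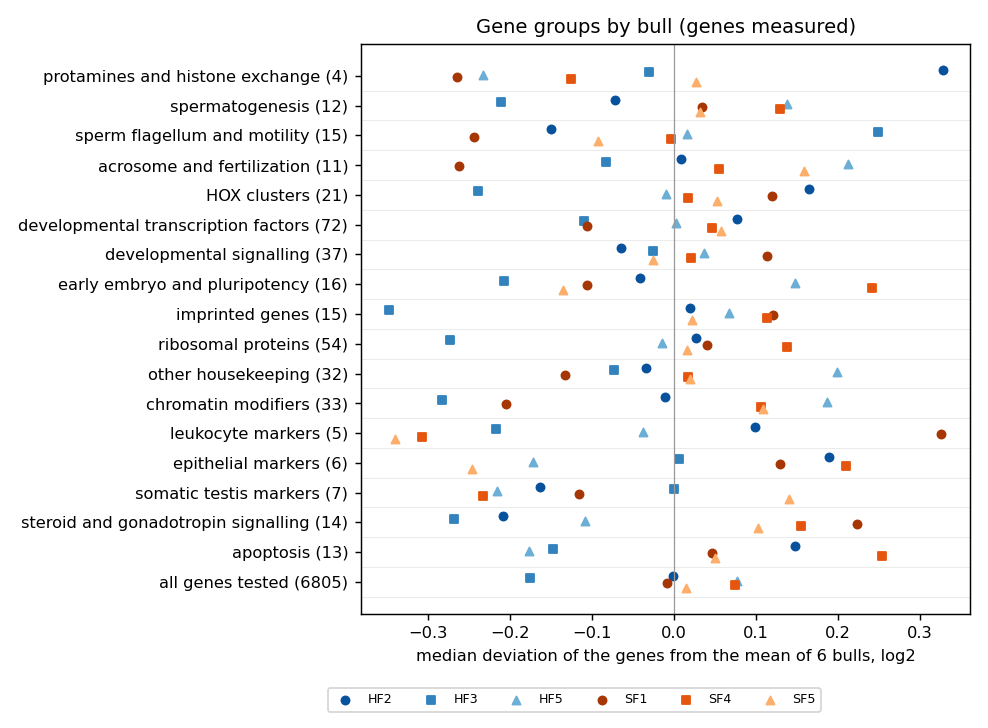
Median deviation from the mean of 6 bulls (log2, horizontal axis) of the genes of 17 groups and of all genes tested, with 1 point per bull and the number of genes measured in brackets. The steroid and gonadotropin group has its 3 high-fertile points at −0.27 to −0.11 and its 3 subfertile points at 0.10 to 0.22.

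Input enters every ChIP ratio as its denominator, so its differences were set beside those of the Cy5 channel. The high-fertile minus subfertile difference of the input had an SD of 0.43 over 6805 genes on the H3K4 arrays, where that of the H3K4me2 channel was 0.47 and that of the log2 ratio 0.60. On the H3K27 arrays the values were 0.43 for input, 0.46 for H3K27me3 and 0.57 for the ratio. All are differences of centred log2 signals, without further normalisation of the ratio. Differences in the denominator between the groups were therefore about as wide as those in the immunoprecipitated DNA.

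A bull's input and its ChIP DNA deviated together only weakly. Input deviations on one array of a bull were compared with Cy5 deviations on its other array, so that no spot was shared. Across genes r was −0.06 to 0.30 for H3K4me2 (median 0.03) and 0.07 to 0.22 for H3K27me3 (median 0.10), and HF2 was highest in both at 0.30 and 0.22. HF3, whose input gene deviations had an SD of 0.74 and 0.76 on its 2 arrays, had Cy5 SDs of 0.44 and 0.46. Its input thus varied more than its ChIP channels did. In SF5 the order was the other way, at 0.39 for input on both arrays against 0.84 for H3K4me2 and 0.60 for H3K27me3.

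At the genes with the widest ratio differences, the input differed in the direction that widens the ratio. The 5 genes of widest ratio difference for each mark, among genes with at least 3 probes, were selected on the ratio, which contains the input with a minus sign. TM9SF4, a transmembrane protein of the secretory pathway, had an H3K4me2 ratio difference of −3.76, made of −2.65 in the ChIP channel and 1.12 in the input, so that the input accounted for 29.7% of it. For H3K4me2 the input share was 29.4% at AARS2, 48.9% at MIR431, 32.5% at TMEM177 and 45.7% at LIAS. For H3K27me3, ASB8 had a ratio difference of 3.45 with an input difference of −1.81 (52.7%). OXA1L had −3.35 with 1.35 in the input (40.4%), and SMYD1 −2.64 with 1.30 (49.3%). ANTXR1 had 2.86 with −1.16 in the input (40.4%), and RUNDC3A, at 18.5%, owed most of its 2.84 to the ChIP channel. Bulls of the groups did not overlap in input at OXA1L, SMYD1, ANTXR1 and TMEM177, and overlapped at the other 6 genes. Over all 6805 genes they did not overlap at 534 (7.85%). Selection on the ratio favours wide input differences, so the 2 shares cannot be compared.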

How the data were processed

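Agilent 4x180K ChIP-on-chip arrays were scanned and read with Agilent Feature Extraction 10.7, per the submitters' processing notes. The deposited scanner files give processed intensity per spot for both channels, background-subtracted, spatially detrended and scaled by 1 linear dye factor per array, per the file headers. Cy3 holds input on all arrays, with no dye swap. All arrays fall in 1 scan batch. Here log2 Cy3 processed intensity was centred on each array's median. Outlier spots were left out, so a bull with 1 such spot takes its other array's value. Probes well above background on at least 6 arrays were kept (177372 of 177440). Arrays of a bull were averaged. Gene values are means of at least 2 probes. Symbols are those of the array, and 7834 of 9328 match buffalo RefSeq symbols (assembly table NDDB_SH_1). Groups were compared with limma 3.58.1 in R 4.3.3 with Benjamini-Hochberg adjustment over all genes or probes, and per-bull summaries with exact two-sided permutation tests over bulls. The scripts were tested on simulated data. Genes were named by smallest unadjusted p with no overlap of arrays, by extreme deviation or smallest range per bull, by the 2 smallest p per gene group and by widest ratio difference. Members, groups and rules were chosen with earlier results of these data known. The authors' value table was not used here, and 3 genes that the rules name are not reported here. P-values of the fertility comparisons with 1 value per bull measure the spread between the bulls sampled. Those of the F test over bulls and of the fit with slide as the block rest on the spread between arrays.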

Additional observations from a re-analysis of the deposited data

How the results depend on the processing

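With limma, 0 genes and 0 probes passed between the fertility groups under normexp background correction, quantile normalization, GC correction, both filters on dim probes, outlier spots kept, the H3K4 or H3K27 arrays alone and without each bull, and 0 genes passed with medians of probes or at least 5 probes per gene. The lowest adjusted p of a gene over these was 0.113, under quantile normalization. Genes with an unadjusted p under 0.05 numbered 154 with at least 5 probes per gene (4358 genes tested) and 162 to 397 when 1 bull was left out. On 12 single arrays, 1 gene (CCDC91) passed with bull as a random block. With slide as the block 5551 genes and 132981 probes passed, and 5609 genes had an unadjusted p under 0.05. By its construction that fit weighs the bulls that share slide 4: its differences correlate with HF5 minus SF1 at r = 0.999 across genes, so it compares those bulls against array spread. With 1 value per bull the slide block could not be fitted. The 20 genes chosen between the groups kept their sign under all 18 or 19 alternatives run for each. Their choice fixes that sign when bulls are left out, on the H3K4 or H3K27 arrays alone and in the fits on 12 single arrays. Group differences near 0 changed sign: X minus autosome ranged from −0.10 to 0.15 (opposite sign in 9 of 15 alternatives), coding minus CpG island from −0.01 to 0.03 (6 of 15) and the GC slope from −0.10 to 0.16 (6 of 14). The neighbouring probe correlation at 60 to 119 bases was 0.483 under normexp and 0.470 under quantile normalization, against 0.447. Regions gave 0 calls without any bull. No paired analysis was possible because the groups share only number 5, which stands for different bulls. The GC slope was not computed after GC correction, which removes it.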
